A study of Mus musculus with 13 samples.

Results

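The complement and adipsin genes are 9 transcripts, Cfd, Cfb, C3, C1qa, C1qb, C1qc, C4b, C2 and Serping1, chosen by symbol and matched to 9 of the 42416 Ensembl identifiers counted in each library. Complement is a set of secreted proteins that tag surfaces for removal. In the classical pathway, the C1q complex, built from the chains of C1qa, C1qb and C1qc, recognises a target, and C4 and C2 are then cut to form an enzyme, the C3 convertase. In the alternative pathway, factor B (Cfb) binds activated C3 and is cut by factor D, which is adipsin, the product of Cfd. C3 is the protein at which all routes meet, and Serping1 encodes the C1 inhibitor, which blocks the proteases of the C1 complex. Adipsin is known as a product of adipocytes, and C1q is known as a product of macrophages.

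Transcripts were measured by bulk RNA sequencing of interscapular brown adipose tissue (iBAT) from 13 mice, 8 labelled iFAXLKO (loxP-Axl-loxP, Cre+) and 5 labelled WT (loxP-Axl-loxP, Cre-). Each mouse of either group carried the floxed Axl, was kept at room temperature on a high-fat diet (HFD), with tamoxifen at intervals of 3 weeks. Per the methods of the study, Cre is CreERT2 under Adipoq, carried on a bacterial artificial chromosome, so recombination is directed to adipocytes. Per the labels, the Cre-negative mice received tamoxifen too. The study describes female littermates that were induced and placed on HFD as young adults, and the age and the length of the diet at dissection are not given for the sequenced mice in the sources used here. The libraries held between 22.44 and 32.6 M counts. The comparison asks how the loss of Axl in adipocytes changes brown fat on HFD, here for the complement genes.

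Axl itself (ENSMUSG00000002602, chromosome 7, 25757273 to 25788705, GRCm38), the targeted receptor tyrosine kinase, was not reduced in the mice labelled iFAXLKO. These held 33.1 ± 6.16 counts per M (CPM) of Axl (SD, n = 8) against 27.8 ± 3.82 CPM (SD, n = 5) in WT. On the log2 scale this is 0.25 (SE 0.13, edgeR adjusted p = 0.699). Reads from other cell types of the tissue and from any part of the gene enter this count. Every direction given for the groups therefore rests on the labels alone. Markers of brown adipocytes were abundant in all libraries, their 8 genes summing to between 7568 and 14139 CPM. The 6 hepatocyte markers summed to at most 2.6 CPM, so transcripts of the liver, the main source of circulating complement, were near absent. WT replicate 1 stood apart in the 6 lymphocyte markers, with 20.7 CPM in sum against at most 6.39 CPM in the other libraries.

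RefSeq promoters (GRCm38.p6) were at hand for 4 of the 9 genes. The 250 bases before the start are shown for the adipsin gene and for C3, the most abundant pair, and for C1qb, which stands for the C1q genes that varied together between mice. They lie at chr10:79890603-79890852 on the plus strand for Cfd, at chr17:57228137-57228386 on the minus strand for C3 and at chr4:136886201-136886450 on the minus strand for C1qb. Each reads 5′ to 3′ and ends next to the start, with matches to the motifs searched in capitals.
Cfd: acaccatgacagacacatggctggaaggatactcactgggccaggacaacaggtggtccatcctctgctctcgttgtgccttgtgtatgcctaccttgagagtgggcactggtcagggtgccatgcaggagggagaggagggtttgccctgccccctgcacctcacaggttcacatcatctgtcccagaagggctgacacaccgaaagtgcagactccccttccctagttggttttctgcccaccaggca
C3: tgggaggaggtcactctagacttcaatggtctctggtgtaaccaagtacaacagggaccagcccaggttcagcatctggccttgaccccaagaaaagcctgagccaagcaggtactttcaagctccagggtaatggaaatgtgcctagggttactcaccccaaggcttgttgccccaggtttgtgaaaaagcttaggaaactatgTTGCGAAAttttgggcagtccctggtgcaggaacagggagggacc
C1qb: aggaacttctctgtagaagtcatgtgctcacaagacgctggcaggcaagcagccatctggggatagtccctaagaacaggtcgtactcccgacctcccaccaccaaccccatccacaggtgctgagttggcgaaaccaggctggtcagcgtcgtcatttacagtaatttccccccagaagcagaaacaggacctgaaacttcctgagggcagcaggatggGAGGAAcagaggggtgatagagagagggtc

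The 6 motifs were searched on both strands, with N for any base. The C/EBP motif TTGCNNAA, named for factors of adipocyte and liver genes, was in the C3 promoter from 45 to 38 bases before the start, and in 9.56% of the 32851 promoters of the table. The core GAGGAA, bound by ETS factors such as PU.1 of macrophages, was in the C1qb promoter 30 to 25 bases before the start. It was also in that of C1qc, on the other strand, and in 23.3% of all promoters. The C1qc window reaches into the gene as GENCODE annotates it and is not shown. The interferon-stimulated response element core, GAAA repeated after 2 further bases (2.98% of all promoters), the STAT motif TTCNNNGAA (7.02%), the NF-kB motif (0.356%) and the PPAR response element, AGGTCA repeated after 1 further base (0.0335%), had no match in the 4 windows. The Cfd window held no match to the 6 motifs. A match is a description of letters and not a site shown to be used.

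The 9 genes were all above the filter on low counts, but their levels spanned a wide range. Per kb of exon, Cfd stood at 1307 CPM per kb over the 13 libraries, which ranked 30 among the 13360 genes tested. C3 followed with 175 CPM per kb and rank 251. The next were C1qa with 25.4, C1qb with 20.4, Serping1 with 14.6 and C1qc with 11.4 CPM per kb. C4b, Cfb and C2 were the lowest, with 3.63, 2.82 and 0.893 CPM per kb. In this order each gene was above the next in 13 of 13 libraries, except that C4b was above Cfb in 10 of 13. Cfd and C3 together took most of the reads of the 9 genes, Cfd alone between 28.8% (WT replicate 1) and 68.2% (iFAXLKO replicate 1) of them.

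**Figure D1:**
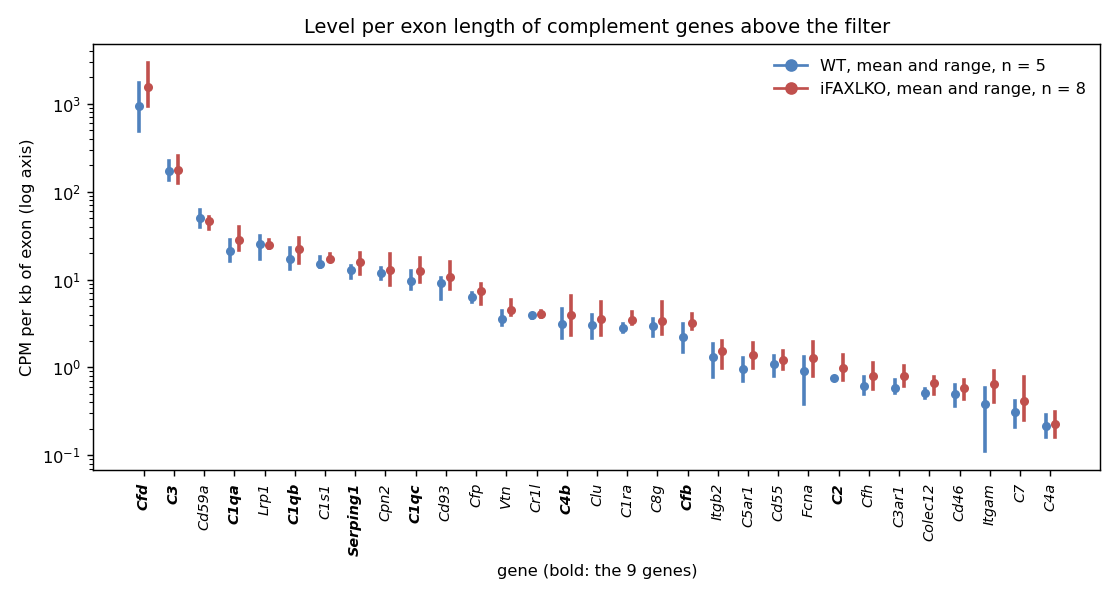
CPM per kb of exon, on a log axis, of the 9 genes (bold) and the related complement genes above the filter, in order of level, with the mean (point) and the range over libraries (line) of WT (n = 5) and iFAXLKO (n = 8). Cfd at 1307 CPM per kb and C3 at 175 CPM per kb lie far above the remaining genes, and C2 at 0.893 CPM per kb is the lowest of the 9.

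Between the groups, the log2 fold change was positive for 9 of 9 genes, where 46.4% of all genes tested had a positive one, and the median over the 9 was 0.39 against -0.01 over all genes. In edgeR's quasi-likelihood test, 0 of 9 passed an adjusted p of 0.05, and 0.127% of all genes did so. An unadjusted p under 0.05 was reached by 6 of 9 (Cfb, C1qa, C1qb, C1qc, C2 and Serping1), all higher in the iFAXLKO libraries, a direction and limit that 3.84% of all genes met, with 7.38% in either direction. A log2 fold change of at least 0.3 was found for 8 of 9, C3 being the exception, and for 6.77% of all genes. DESeq2 gave 0 adjusted and 6 unadjusted calls as well, where 67 and 1109 of all 13360 genes were called. The CPM ranges of the groups overlapped for 9 of 9, while 0.434% of all genes did not overlap. Unadjusted calls fell to 2 without WT replicate 5, to 3 without WT replicate 1 (Cfb, C1qa and Serping1) and to 4 without WT replicate 3 or iFAXLKO replicate 7. Over all genes tested, such calls also fell from 986 of 13360. They were 675 of 13342 without WT replicate 5 and 825 of 13325 without WT replicate 1. Without WT replicate 3 they were 955 of 13321, and without iFAXLKO replicate 7 they were 815 of 13309. With each library left out in turn, the log2 fold change ran from 0.35 to 0.56 for C1qa, from 0.31 to 0.51 for C1qb, from 0.32 to 0.51 for C1qc, from 0.25 to 0.37 for Serping1, from 0.41 to 0.67 for Cfb and from 0.27 to 0.42 for C2. Without WT replicate 1, the edgeR p before adjustment was 0.122 for C1qb, 0.0633 for C1qc and 0.0647 for C2, and Cfd stood at 0.56 on the log2 scale. The genes were proposed with results of these libraries known, so these counts describe them and are no separate evidence.

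**Figure D2:**
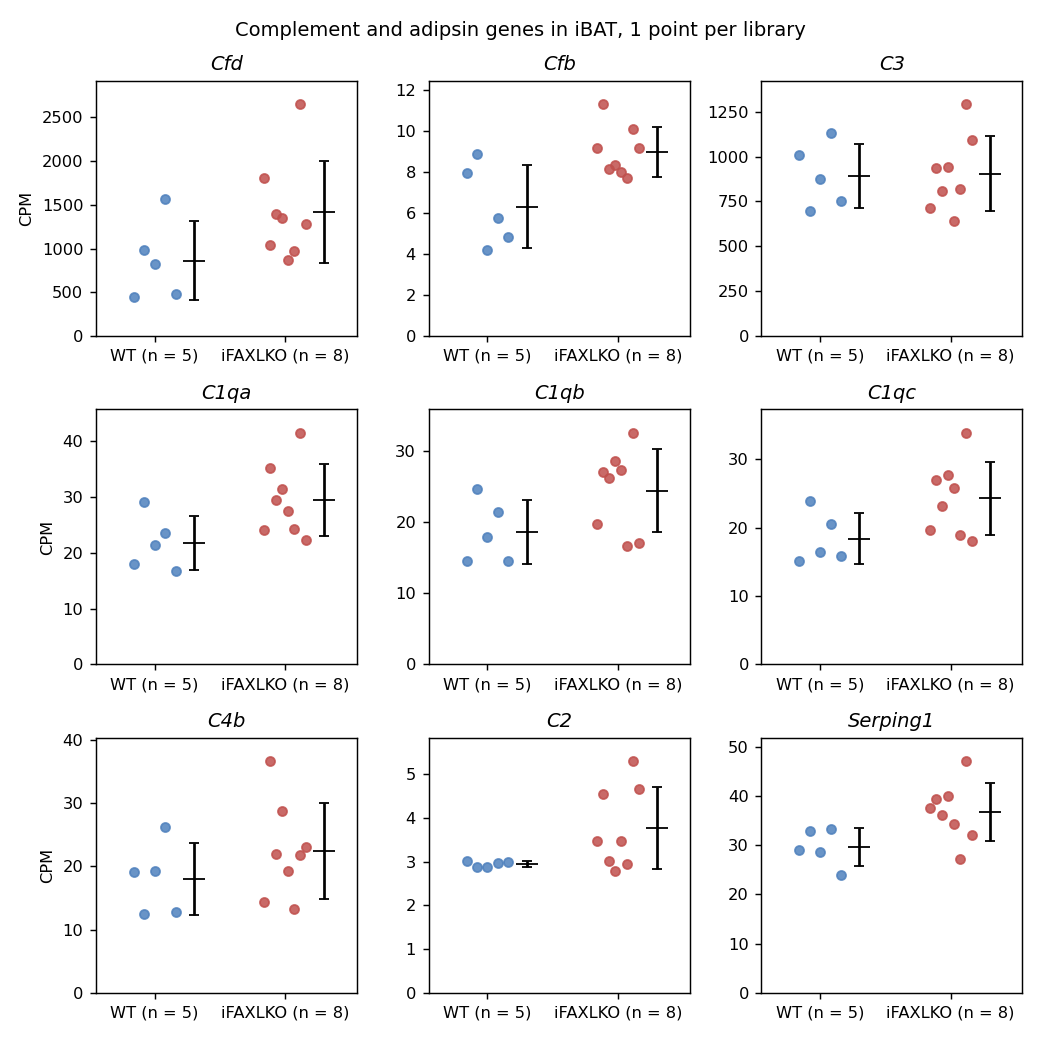
CPM of each of the 9 genes in the 5 WT and 8 iFAXLKO libraries (points), with the mean and SD beside each group and axes that start at 0. The groups overlap in every panel; iFAXLKO replicate 7 is the highest library for Cfd at 2651 CPM, and the WT libraries of C2 lie between 2.87 and 3.01 CPM.

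Cfd (ENSMUSG00000061780, chromosome 10, 79890853 to 79892655, GRCm38), the adipsin gene, had the largest fold change of the 9 and also the widest spread. In the iFAXLKO libraries it ran from 865 to 2651 CPM with a median of 1315 CPM. In WT replicates 1 to 5 it was 450.7, 988, 819.9, 1570 and 484 CPM. All 8 iFAXLKO libraries lay above the WT mean of 863 CPM, but only 2 lay above the highest WT library, replicate 4. This is a log2 fold change of 0.72 (SE 0.33), or a fold of 1.65 with a 95% interval from 0.999 to 2.71. The edgeR p was 0.0505 before and 0.678 after adjustment. The exact permutation test over 1287 splits gave p = 0.0497, 2-sided. Its size on the log2 scale was 0.53 without iFAXLKO replicate 7, the highest library, and 1.05 without WT replicate 4.

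Cfb (ENSMUSG00000090231, chromosome 17, 34856374 to 34862518), which encodes factor B, the substrate of adipsin, had the smallest p of the 9. The iFAXLKO libraries ran from 7.68 to 11.3 CPM with a median of 8.74 CPM. WT replicates 1 to 5 were at 7.95, 8.87, 4.18, 5.73 and 4.81 CPM. WT replicates 1 and 2 thus lay within the iFAXLKO range and the other three below it. The fitted difference was 0.51 on the log2 scale (SE 0.17, edgeR p = 0.00794, adjusted p = 0.49, exact permutation p = 0.0109). It kept a positive sign in 25 of 25 alternative fits. Its reads are uncertain, because Gm20547, an annotated locus on the same strand (34856412 to 34882042), overlaps both Cfb and C2.

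The size of the difference in Cfb and Cfd varied with the library numbers in the labels, whose meaning is not stated. Each range of numbers holds few libraries, and whether the ranges differ was not tested. With the range as a covariate the log2 fold change was 0.75 for Cfd and 0.52 for Cfb. In the 6 libraries of the lower numbers (iFAXLKO replicates 1 to 4 and WT replicates 1 and 2), the log2 difference was 1.04 for Cfd and 0.12 for Cfb. In the 7 of the higher numbers (iFAXLKO replicates 5 to 8 and WT replicates 3 to 5) it was 0.60 for Cfd and 0.83 for Cfb. For C4b the difference was 0.64 in the lower and 0.02 in the higher range. The C1q genes lay between 0.34 and 0.46 in both ranges, Serping1 at 0.31 and 0.28, C2 at 0.21 and 0.42, and C3 at 0.01 and 0.04.

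C3 (ENSMUSG00000024164, chromosome 17, 57203970 to 57228136) had the smallest difference of the 9. It ran from 643 to 1293 CPM with a median of 879 CPM in the iFAXLKO libraries. WT replicates 1 to 5 held 1007, 699, 874, 1134 and 750.1 CPM. The WT libraries thus lay within the range of the iFAXLKO libraries. Its log2 fold change of 0.02 (SE 0.16) had a 95% interval from -0.32 to 0.37 (edgeR adjusted p = 0.99, exact permutation p = 0.949). Its sign turned in 10 of 25 alternative fits, with values from -0.33 to 0.12 over these fits.

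The C1q genes lie side by side on chromosome 4 (GRCm38, minus strand), C1qb (ENSMUSG00000036905) from 136880129 to 136886187, C1qc (ENSMUSG00000036896) from 136889804 to 136893065 and C1qa (ENSMUSG00000036887) from 136895917 to 136898803. C1qa ran from 22.2 to 41.5 CPM with a median of 28.5 CPM in the iFAXLKO libraries, and WT replicates 1 to 5 were at 17.9, 29.0, 21.3, 23.6 and 16.8 CPM. C1qb ran from 16.7 to 32.6 CPM with a median of 26.6 CPM, against 14.5, 24.7, 17.9, 21.5 and 14.5 CPM. C1qc ran from 18.0 to 33.9 CPM with a median of 24.5 CPM, against 15.1, 23.9, 16.4, 20.6 and 15.9 CPM. For each chain the highest library was iFAXLKO replicate 7, and WT replicate 2 was the highest WT library.

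Fold changes on the log2 scale of the 3 chains were alike in size, 0.44 (SE 0.16) for C1qa, 0.39 (SE 0.18) for C1qb and 0.40 (SE 0.16) for C1qc. The edgeR p was 0.0153, 0.0457 and 0.0219, and the adjusted p 0.537, 0.658 and 0.573. The exact permutation p was 0.0311 for C1qa, 0.0855 for C1qb and 0.049 for C1qc. In bulk tissue, more cells of a type and more RNA per cell cannot be told apart. The macrophage markers moved with these genes. All 10 had a positive log2 fold change (median 0.41), 6 at an unadjusted p under 0.05 and 0 past the adjusted limit. Over all genes tested, 46.4% were positive and 3.84% were positive at an unadjusted p under 0.05. The sum of the macrophage markers ran from 113.2 to 222.5 CPM in the iFAXLKO and from 96.4 to 136.4 CPM in the WT libraries. With the macrophage score, the mean log2 CPM of these markers, as a covariate, the log2 fold change was 0.05 for C1qa, -0.04 for C1qb and 0.02 for C1qc. With a fibroblast score as a covariate it was -0.12, -0.21 and -0.15, with an edgeR adjusted p of 1 for each in both fits.

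C4b (ENSMUSG00000073418, chromosome 17, 34728380 to 34743882) and C2 (ENSMUSG00000024371, chromosome 17, 34862604 to 34898265) encode the parts of the classical C3 convertase. C4b ran from 13.2 to 36.6 CPM with a median of 21.8 CPM in the iFAXLKO libraries, and WT replicates 1 to 5 were at 19.1, 12.4, 19.2, 26.2 and 12.7 CPM. WT replicates 1, 3 and 4 lay within the iFAXLKO range and WT replicates 2 and 5 just below it. A log2 fold change of 0.32 was fitted for C4b (SE 0.24, edgeR adjusted p = 0.84, exact permutation p = 0.278). It was 0.18 without iFAXLKO replicate 2 and 0.49 without WT replicate 4. C4b has a near-identical copy, C4a, listed at 0.993 to 1.94 CPM, so reads may have been split between them.

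C2 ran from 2.8 to 5.3 CPM with a median of 3.48 CPM in the iFAXLKO libraries. WT replicates 1 to 5 were at 3.01, 2.87, 2.88, 2.98 and 2.99 CPM, with between 66 and 98 reads each. Their coefficient of variation was 2.25%, below the 11.2% that counting reads alone gives at this depth, so the narrow WT range is closer than the measurement can resolve. Of the 8 iFAXLKO libraries, 6 lay above the highest WT library. For C2 the log2 fold change was 0.36 (SE 0.16, edgeR p = 0.0448, adjusted p = 0.657, exact permutation p = 0.0707). In the 10 libraries numbered 1 to 5 of either group, a subset chosen after seeing the data, it was 0.23 with an edgeR p of 0.134. C2 overlaps Gm20547 on the same strand and Zbtb12 on the opposite strand. Since the strand setting of the counts is not given in the sources used here, its reads are uncertain.

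Serping1 (ENSMUSG00000023224, chromosome 2, 84765387 to 84775444), the C1 inhibitor gene, varied least between mice of the genes with more than 10 CPM. The iFAXLKO libraries ran from 27.3 to 47.1 CPM with a median of 36.8 CPM, and WT replicates 1 to 5 were at 29.0, 32.9, 28.7, 33.4 and 23.9 CPM. Of the 8 iFAXLKO libraries, 6 lay above the highest WT library and 1, replicate 6, below 4 of the WT libraries. On the log2 scale Serping1 differed by 0.31 (SE 0.12, edgeR p = 0.0171, adjusted p = 0.55, exact permutation p = 0.0365). Fibroblast markers moved with it, all 10 with a positive log2 fold change (median 0.63), 9 at an unadjusted p under 0.05 and 0 past the adjusted limit. Over all genes tested, 46.4% were positive and 3.84% were positive at an unadjusted p under 0.05. The sum of the fibroblast markers ran from 536 to 1105 CPM in the iFAXLKO and from 395 to 681 CPM in the WT libraries. With the fibroblast score as a covariate the log2 fold change of Serping1 was -0.10, and with the macrophage score it was 0.04.

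The same covariates moved the remaining genes by different amounts. With the macrophage score the log2 fold change was 0.26 for Cfd, 0.49 for Cfb, 0.12 for C2, -0.25 for C4b and -0.33 for C3. With the fibroblast score it was 0.03 for Cfd, 0.22 for Cfb, 0.14 for C2, -0.38 for C4b and -0.33 for C3. No gene of the 9 had an unadjusted p under 0.05 in either fit. Over all 13360 genes tested, such calls also fell, from 986 without a covariate to 359 with the macrophage and 183 with the fibroblast score. The part of these cells in the differences was not tested further. Markers of brown adipocytes had 0 of 8 and those of adipocytes of any kind 0 of 7 positive log2 fold changes, with medians of -0.16 and -0.13. Interferon response genes had 6 of 10 positive (median 0.23). Over all genes tested, 46.4% had a positive log2 fold change. Skeletal muscle markers ran from 56.4 to 4305 CPM in sum between libraries. In the fit with their score as a covariate, 6 of the 9 genes had an unadjusted p under 0.05, as had 979 of all 13360 genes. Cfd was among these 6 in place of C2, with unadjusted edgeR p-values of 0.0425 for Cfd and 0.0596 for C2.

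Of 44 related complement genes, 22 passed the filter on low counts. Of these, 20 had a positive log2 fold change (median 0.23), 7 had an unadjusted p under 0.05 and 0 passed the adjusted limit in edgeR, with 0 in DESeq2 too. The 7 were all higher in the iFAXLKO libraries, a direction and limit met by 3.84% of all genes. A positive log2 fold change was found for 46.4% of all genes tested. With the macrophage score as a covariate 1 of the 22 had an unadjusted p under 0.05, and with the fibroblast score 0. Of all 13360 genes tested, 359 had one with the macrophage and 183 with the fibroblast score. C1ra, the protease of the C1 complex that C1q activates first, ran from 9.4 to 12.8 CPM in the iFAXLKO and from 7.59 to 9.17 CPM in the WT libraries, so its ranges did not overlap, as for 0.434% of all genes. The log2 fold change of C1ra was 0.33 (SE 0.09, edgeR adjusted p = 0.379), where the unadjusted edgeR p was 0.00207 and the exact permutation test gave 0.000777, the smallest that 1287 splits can give. C1s1, the protease cut by C1r, had 0.19 (SE 0.07, adjusted p 0.571), and Colec12, a scavenger receptor of the collectin family, 0.39 (SE 0.11, adjusted p 0.412). Serping1 encodes the inhibitor of the C1r and C1s proteases.

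Of all genes tested, 46.4% had a positive log2 fold change. Among the alternative pathway and fluid regulators, 5 of 8 were tested and all 5 were positive. Only Vtn, vitronectin, had an unadjusted p under 0.05, at 0.33 on the log2 scale (SE 0.12, edgeR adjusted p = 0.55). Of the receptors, 6 of 10 were tested. C3ar1, the receptor for C3a, stood at 0.45 on the log2 scale (SE 0.16, edgeR adjusted p = 0.512), C5ar1, the receptor for C5a, 0.51 (SE 0.21, adjusted p 0.609), and Itgam, a chain of complement receptor 3 and a myeloid marker, 0.72 (SE 0.32, adjusted p 0.633). The other receptors tested were Itgb2 at 0.24 (SE 0.23), Cd93 at 0.23 (SE 0.16) and Lrp1 at -0.07 (SE 0.12). The 4 membrane regulators tested, which protect cells from complement, had a median of 0.10 and 0 unadjusted calls. Cd46 was at 0.20 (SE 0.15), Cd55 at 0.16 (SE 0.14) and Cr1l at 0.03 (SE 0.06). Cd59a, the most abundant of the 4 at 47.4 CPM per kb, was at -0.12 (SE 0.11).

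The terminal components, which form the lytic pore, were at low levels in this depot. Only C7 and C8g passed the filter, with log2 fold changes of 0.42 (SE 0.27, edgeR adjusted p 0.768) and 0.17 (SE 0.19, adjusted p 0.903). The other 5, Hc, C6, C8a, C8b and C9, reached at most 0.183 CPM in a library. Among all 44 genes, 6 had no read in 13 libraries, which allows up to 0.092 to 0.134 CPM by library (3 counts, counting error only). These 6, named after their values were seen, were Mbl1, Mbl2, Fcnb, Cfi, C8a and C8b.

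**Figure D3:**
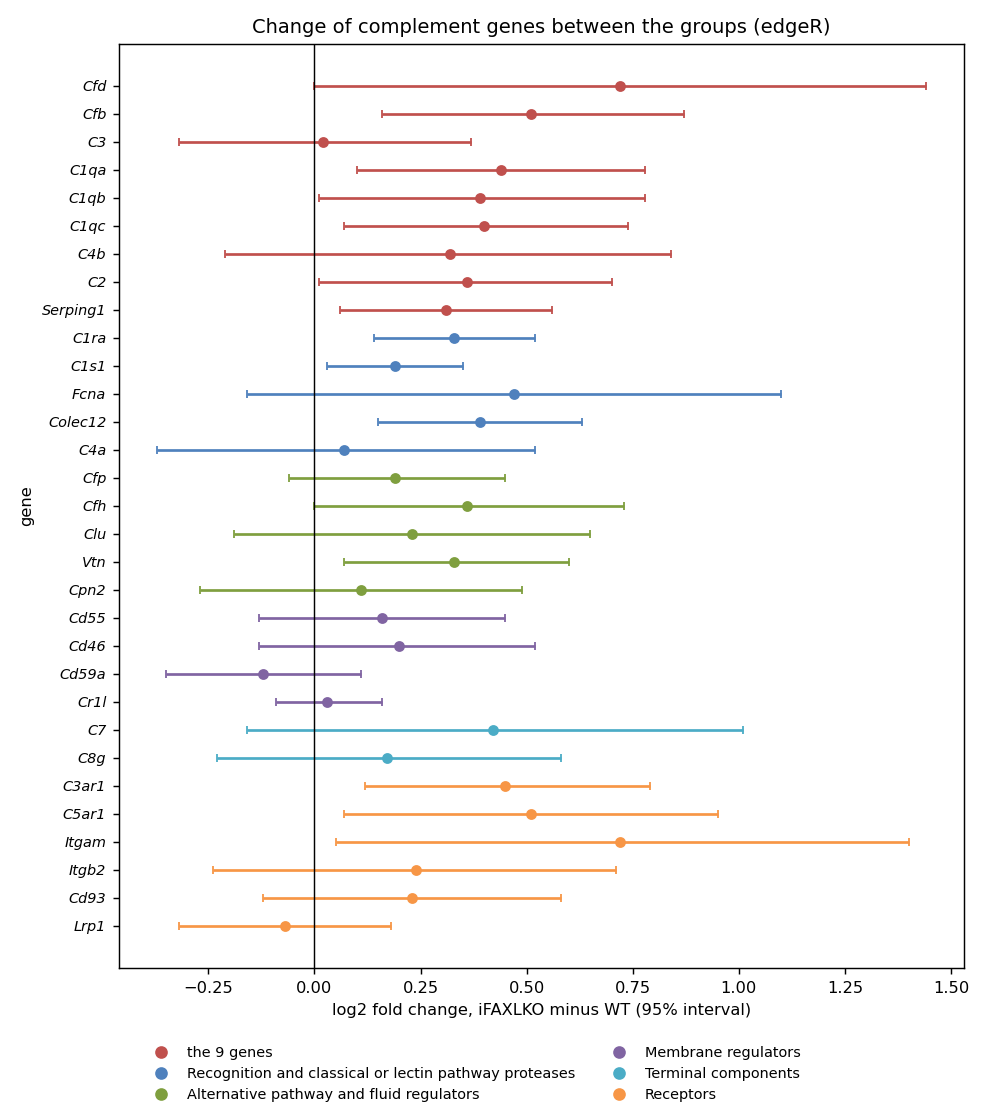
Log2 fold change, iFAXLKO minus WT, with its 95% interval from edgeR for the 9 genes and the 22 related complement genes tested, coloured by role. The 9 genes run from 0.02 for C3 to 0.72 for Cfd, and only Cd59a and Lrp1 among the related genes lie below 0.

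Several of the 9 genes are neighbours on their chromosomes, so the genes beside them were followed too. Cfb and C2 lie 86 bases apart and C4b lies 112492 bases from Cfb, all in the class III region of the major histocompatibility complex, and C3 lies 22341452 bases from Cfb on the same chromosome. Within 50 kb of the 9 genes, 23 other genes were tested, 16 with a positive log2 fold change, with a median of 0.02, an edgeR count of 0 past the adjusted limit (0 in DESeq2) and 3 at an unadjusted p under 0.05. Of all genes tested, 46.4% had a positive log2 fold change, 0.127% passed the adjusted limit and 7.38% had an unadjusted p under 0.05. The neighbours' unadjusted count was 1 without WT replicate 1, where 825 of all 13325 genes had such a p. Over all libraries left out in turn it was 1 to 4, and the count over all genes ran from 675 to 1594. With the fibroblast score as a covariate the neighbours' count was 1, where 183 of all 13360 genes had such a p. The 3 were Gm20547, which overlaps Cfb and C2, at 0.49 (SE 0.15), Tnxb, which encodes a matrix protein and lies 8565 bases from C4b, at 0.35 (SE 0.14), and Ube2l6, an enzyme of ISG15 conjugation beside Serping1, at 0.33 (SE 0.14). Neighbours such as Nelfe (-0.10), Ehmt2 (0.02) and Skiv2l (0.01) beside Cfb and C2, Med16 (-0.15) beside Cfd and Gpr108 (-0.04) beside C3 had values near or below 0.

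Between mice of the same group, some of the 9 genes varied together. Correlations were taken over the 13 libraries on log2 CPM with group means subtracted, with permutation p-values adjusted over 81 pairs, 36 between the 9 genes and 45 with marker scores. Pearson's r passed the adjusted limit in 15 pairs, Spearman's rho in 12 and both in 11. The count in r was 7 without iFAXLKO replicate 7, 9 without WT replicate 5 and 11 without WT replicate 1. The C1q chains were the most alike, with r = 0.92 for C1qa with C1qb (rho = 0.87), 0.94 for C1qa with C1qc (rho = 0.92) and 0.96 for C1qb with C1qc (rho = 0.97). The adjusted permutation p for r was 0.00054, 0.000405 and 0.000405, and that for rho 0.00567, 0.00243 and 0.00081. After the 2 libraries with the most extreme values of the first gene were left out, r came to 0.93, 0.92 and 0.96. In either range of library numbers r lay between 0.91 and 0.97.

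Serping1 varied with the C1q chains, with r of 0.82 for C1qa, 0.83 for C1qb and 0.81 for C1qc (rho 0.84, 0.85 and 0.82) and adjusted permutation p of 0.00607, 0.0034 and 0.00856 for r and 0.00597, 0.00597 and 0.00891 for rho. Leaving out the 2 most extreme libraries gave 0.72, 0.83 and 0.76. In the lower library numbers r was 0.80, 0.77 and 0.87, and in the higher numbers 0.92, 0.91 and 0.89. Cfd varied with Serping1 at r = 0.71 (rho = 0.73), with an adjusted permutation p of 0.0437 for r and 0.044 for rho, 0.67 without the 2 most extreme libraries, 0.40 in the lower and 0.87 in the higher numbers. Cfb, C4b, C2 and C3 passed the limit with no other gene of the 9. Their r with the others, group means subtracted, ran from 0.10 to 0.59.

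Cfd and C3, the most abundant pair, had an r of opposite sign in the lower and the higher library numbers. Over the 13 libraries r was 0.45 (rho = 0.25, adjusted permutation p 0.269 for r and 0.645 for rho), but it was -0.90 in the 6 libraries of the lower numbers and 0.89 in the 7 of the higher numbers. With each library left out in turn, r over the remaining libraries ran from 0.22 to 0.61. It was 0.58 within the iFAXLKO libraries and 0.42 without WT replicate 1 and iFAXLKO replicate 7. Each range of numbers holds few libraries, and whether r differs between the ranges was not tested.

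**Figure D4:**
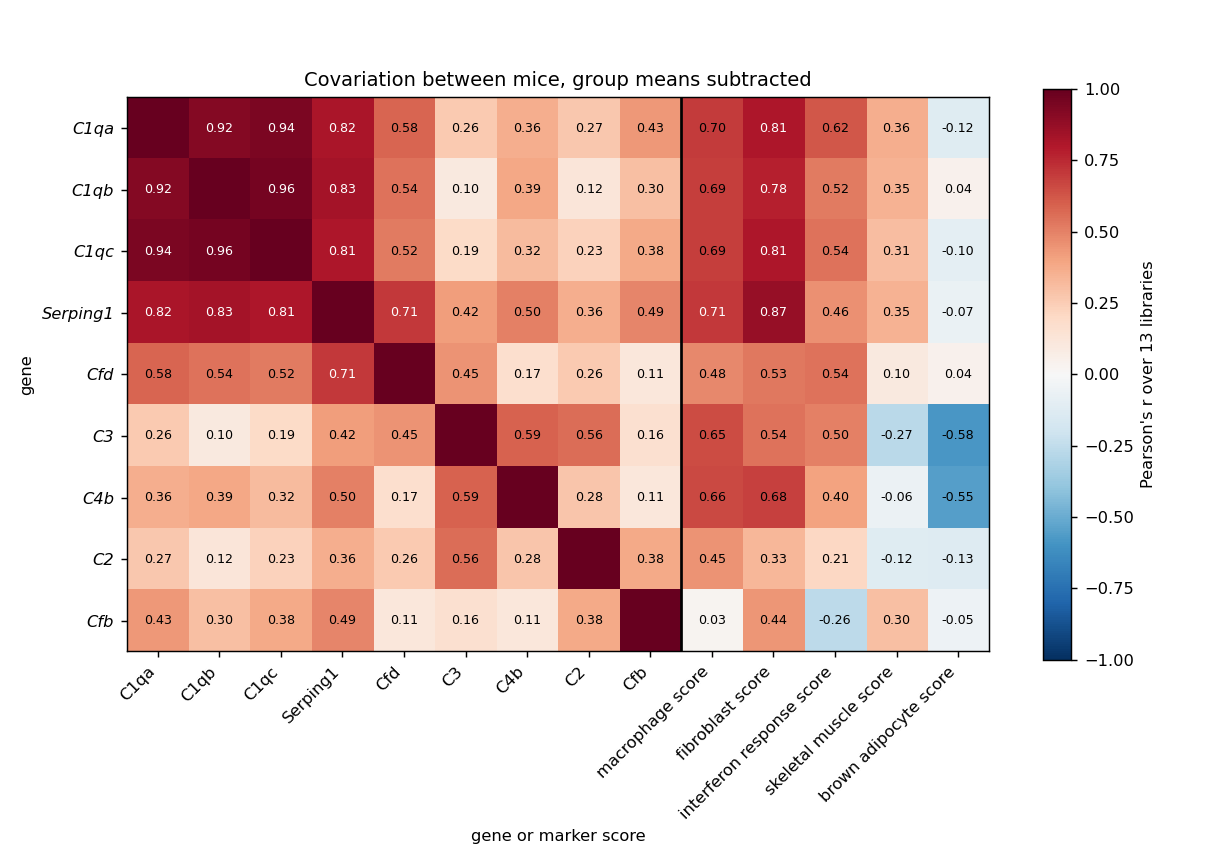
Pearson's r over 13 libraries, group means subtracted, between the 9 genes and, right of the line, with 5 marker scores (mean log2 CPM of a list), from blue for -1 to red for 1. The C1q genes and Serping1 form a block from 0.81 to 0.96, and Cfb has no value above 0.49.

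Of the marker scores, the fibroblast score passed the limit with 4 genes in both measures and the macrophage score with 4 in r alone and C4b in rho alone (rho = 0.72, adjusted permutation p 0.0487). Serping1 had r = 0.87 with the fibroblast score (rho = 0.87, adjusted permutation p 0.00162 for r and 0.00567 for rho), 0.76 without the 2 most extreme libraries, 0.62 in the lower and 0.94 in the higher library numbers. The C1q chains had r of 0.81 (C1qa), 0.78 (C1qb) and 0.81 (C1qc) with it, with adjusted permutation p of 0.0107, 0.0198 and 0.0107, and rho of 0.90, 0.81 and 0.84 with adjusted permutation p of 0.00324, 0.0113 and 0.00597. Without the 2 most extreme libraries these r were 0.67, 0.79 and 0.81, and they were 0.57, 0.46 and 0.60 in the lower and 0.93, 0.91 and 0.91 in the higher library numbers. With the macrophage score, C1qa had r = 0.70 (rho = 0.65, adjusted permutation p 0.0461 for r and 0.106 for rho). Without the 2 most extreme libraries, iFAXLKO replicates 2 and 7, r was 0.44. It ran from 0.53 to 0.92 with each library left out in turn, and was 0.92 within the 8 iFAXLKO libraries. It was 0.41 in the lower and 0.94 in the higher library numbers. C1qb, C1qc and Serping1 had r of 0.69, 0.69 and 0.71 with the macrophage score, and 0.63, 0.52 and 0.46 without the 2 most extreme libraries. The skeletal muscle, brown adipocyte and interferon response scores passed the limit with 0 of the 9 genes, C3 having the lowest r with the brown adipocyte score, -0.58.

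**Figure D5:**
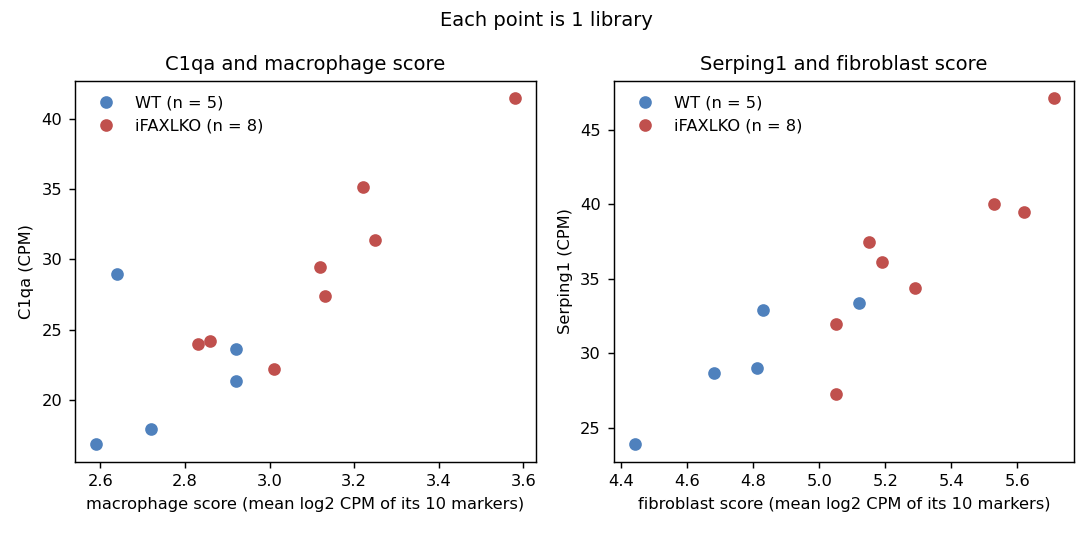
Left, C1qa in CPM against the macrophage score; right, Serping1 in CPM against the fibroblast score (both scores are the mean log2 CPM of 10 markers), with 1 point per library for WT (n = 5) and iFAXLKO (n = 8). iFAXLKO replicate 7 is the highest in both panels, at 41.5 CPM of C1qa and 47.1 CPM of Serping1, and WT replicate 2, at 29.0 CPM of C1qa, lies above the other libraries of a like macrophage score.

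The genes most like each of 6 members over the 13 libraries were named by Pearson's r on log2 CPM with group means subtracted, as a description with no test. For Cfd these were Apoe, apolipoprotein E, at 0.95, Gpx3, the secreted glutathione peroxidase, at 0.93 and Hsd17b10, a mitochondrial dehydrogenase, at 0.91. For C1qa they were Sh3bgrl3 at 0.96, its neighbour C1qc at 0.94 and Ifitm3, an interferon-induced membrane protein, at 0.93. For Serping1 they were Dcn, the matrix protein decorin, Csf1r, a receptor of macrophages, and Clic1, each at 0.91.

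For C3 the nearest were Cd33, a sialic acid receptor of myeloid cells, at 0.94, Smg6 at 0.93 and Endod1 at 0.91. For C4b they were Bace2, an aspartyl protease, at 0.92, Ctsc, cathepsin C, at 0.90 and Tnfrsf11a at 0.86. For Cfb the nearest was the overlapping Gm20547 at 0.97, then Tango2 at 0.90 and Ano10 at 0.89.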

How the data were processed

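The deposited files hold raw read counts per Ensembl gene made by the authors, 1 file per library; the counting tool and strand setting are not given in the sources used here. The methods describe ribosomal RNA depletion, hisat2 and GRCm38, whereas the labels and the submitters' processing notes give polyadenylated RNA, fastp 0.20.0, STAR 2.7.4a and GRCm38.p6, and which of these applies could not be settled. Positions and exon lengths came from GENCODE M21 (GRCm38). Genes above 1 CPM in at least 5 libraries (13360) were scaled by TMM and tested with edgeR 4.0.16 (R 4.3.3; quasi-likelihood, robust, 2-sided, Benjamini-Hochberg, limit 0.05). DESeq2 1.42.0 and limma 3.58.1 served as alternatives. Log2 CPM used a prior count of 2. Exact permutation tests covered all 1287 splits; correlations used 100000 permutations. Scripts were tested on simulated data. Each library is 1 mouse, and no pair of libraries within a group agreed within sampling noise. Pairs between the groups were not checked for this. The 9 genes and all lists were chosen with earlier results of these data known. Named genes were Axl, the 9 genes, related genes at an unadjusted p under 0.05 or else the 2 lowest p of a group, the remaining receptors and membrane regulators tested, genes within 50 kb, the 3 most alike genes and up to 3 markers per list.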

Additional observations from a re-analysis of the deposited data

How the results depend on the processing

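The count of the 9 genes past the adjusted limit was 0 in each of the 25 alternatives, as was that of the related genes and of the genes within 50 kb. Over all genes, 17 passed in edgeR, 67 in DESeq2, 9 with the macrophage and 8 with the fibroblast score as a covariate, and 14 to 19 with a library left out. Whether replicate numbers pair the mice is not given in the labels. Correlations of deviations for same-numbered libraries were 0.392, 0.422, 0.188, 0.181 and -0.614. Libraries of different numbers were not compared, so these values cannot settle it. With the replicate block 7 genes passed over all genes, and 0 of the 9; C2 was then at 0.21 and, in the same 10 libraries without it, at 0.23, with unadjusted p of 0.189 and 0.134. In the exact tests 5 of the 9 had p under 0.05, and 1 to 7 with a library left out (1 without iFAXLKO replicate 2 or WT replicates 1, 3 or 5). No share over all genes is given for the exact test, so these counts describe the 9 genes only. Correlations past the limit in r were 15, 25 without subtracting group means, 9 within the iFAXLKO libraries, and 7 to 17 with a library left out (7 without iFAXLKO replicate 7, 9 without WT replicate 5). Cfd, Cfb and C2 kept a positive sign in 25 of 25 alternatives. C3 turned to -0.13 in limma-voom, -0.14 with the replicate block, -0.14 in the same 10 libraries without it (chosen after seeing the data), -0.01 with the skeletal muscle score and -0.33 with the macrophage or fibroblast score. It ran from -0.07 to 0.12 with a library left out, at -0.07 without iFAXLKO replicate 7, -0.02 without iFAXLKO replicate 8, -0.06 without WT replicate 2 and -0.04 without WT replicate 5. With the fibroblast score C1qa was -0.12, C1qb -0.21, C1qc -0.15, C4b -0.38 and Serping1 -0.10, and with the macrophage score C1qb was -0.04 and C4b -0.25. The cause was not tested. Depth limits C2 most, with 66 to 141 reads per library.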

Other observations

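Ratios between the 9 genes were computed after their values were seen, per kb of exon and within each library. Cfd stood between 6.16 and 14.1 times C3 in the iFAXLKO libraries and between 2.5 and 7.89 times in the WT libraries. The log2 difference of this ratio was 0.77, with an exact permutation p of 0.0303 and 0.182 adjusted over 6 ratios. The C1q chains kept closer ratios, C1qa between 1.05 and 1.51 times C1qb and C1qb between 1.57 and 2.0 times C1qc in all 13 libraries, with log2 differences between the groups of 0.05 and -0.01. C3 stood between 28.4 and 68.9 times C4b. The 9 genes together took between 0.133% and 0.414% of a library's counts, the highest share being in iFAXLKO replicate 7 and the lowest in WT replicate 5.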
